A study of Homo sapiens with 6 samples.

Results

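Matrix glycoproteins are the secreted, non-collagen proteins that give the extracellular matrix its fibers, its adhesive sites and its stores of growth factor. A set of 40 genes that encode structural and matricellular members of this class was taken by gene symbol from the 60748 genes of the table, and each symbol matched 1 gene. They were examined in the human hepatic stellate line LX-2. In the 3 control libraries, LX-2Vector, the cells carried the empty lentiviral vector, and in the 3 LX-2FAP libraries they carried the same vector with a fibroblast activation protein α (FAPα) insert. Per the study's methods the insert was driven by a ubiquitin promoter, which is not the promoter of FAP. Stable cell clones were selected with puromycin, so each group is a selected line. A difference between the selected lines cannot be told apart from an effect of the insert. All cells were cultured for 24 h in DMEM with 10% fetal bovine serum.

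In the liver, activated stellate cells lay down most of the fibrous matrix, and fibronectin is the scaffold on which other components are placed. Fibrillins and fibulins build microfibrils and elastic fibers, and latent TGF-β binding proteins hold inactive TGF-β within them. Tenascins, thrombospondins and proteins of the SPARC family are matricellular, that is, they regulate contact between cell and matrix more than they bear load.

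FAP checked the labels. It measured 1.86, 2.39 and 2.59 in LX-2Vector as a TMM-normalized read count scaled to library size (CPM) and 620, 843 and 707 CPM in LX-2FAP, a log2 fold change of 8.33 ± 0.13 (SE; adjusted p = 4.47e-16, edgeR quasi-likelihood test). Libraries held 17355700 to 26352060 counts. Of the stellate or myofibroblast markers, 6 of 8 reached 1 FPKM (read count scaled to gene length and library size), with COL1A2 and DES at 0.132 FPKM or lower in every library. Among 7 hepatocyte markers apart from SERPINA1 no library exceeded 0.0972 FPKM, while SERPINA1 was at 2.07 to 3.0 FPKM. EPCAM and CDH1 did not exceed 0.109 FPKM, and CDH5, STAB2, LYVE1 and CLEC4G did not exceed 0.0767 FPKM. In the leukocyte list, CD14 was at 1.76 to 1.98 and LYZ at 1.96 to 4.52 FPKM. Other genes of the epithelial and endothelial lists were expressed in every library, with KRT8 at 20.8 to 24.7, KRT18 at 32.3 to 38.3, SOX9 at 14.7 to 16.9 and TIE1 at 11.8 to 13.1 FPKM. The summed FPKM of the epithelial list was 76.4 to 78.8 in LX-2Vector and 71.0 to 77.7 in LX-2FAP, that of the endothelial list was 13.2 to 14.1 and 12.7 to 13, and that of the leukocyte list was 5.15 to 6.63 and 5.72 to 7.6. Over all tested genes, the first principal component placed LX-2FAP replicate 1 (1.91) nearer to the controls (-20.7 to -11.6) than LX-2FAP replicates 2 and 3 (25.4 and 17.0).

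The sequence just before the annotated start of 5 of the genes is shown to let the promoters of genes that fell (FBLN2, FBLN7 and EDIL3) be read beside those of genes that did not pass the test (THBS1 and LTBP1). The windows are 250 bases from RefSeq on GRCh38.p14, 5′ to 3′ on the gene's own strand, and none covers an annotated exon. They lie at chr3:13548875-13549124 (FBLN2, plus strand), chr2:112138135-112138384 (FBLN7, plus), chr5:84384881-84385130 (EDIL3, minus), chr15:39580829-39581078 (THBS1, plus) and chr2:32946703-32946952 (LTBP1, plus). Capitals mark GGGCGG, the core of the SP1 motif, or its reverse complement, and overlapping matches run together.
FBLN2: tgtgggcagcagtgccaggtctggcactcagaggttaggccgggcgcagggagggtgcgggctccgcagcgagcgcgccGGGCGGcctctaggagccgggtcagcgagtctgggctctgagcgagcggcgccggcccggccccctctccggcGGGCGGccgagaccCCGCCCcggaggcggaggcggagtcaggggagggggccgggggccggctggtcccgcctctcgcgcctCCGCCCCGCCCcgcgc
FBLN7: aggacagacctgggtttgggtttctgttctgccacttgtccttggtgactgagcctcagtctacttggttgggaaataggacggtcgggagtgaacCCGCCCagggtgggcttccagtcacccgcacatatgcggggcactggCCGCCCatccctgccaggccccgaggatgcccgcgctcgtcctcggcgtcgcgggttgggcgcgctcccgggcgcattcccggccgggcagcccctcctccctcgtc
EDIL3: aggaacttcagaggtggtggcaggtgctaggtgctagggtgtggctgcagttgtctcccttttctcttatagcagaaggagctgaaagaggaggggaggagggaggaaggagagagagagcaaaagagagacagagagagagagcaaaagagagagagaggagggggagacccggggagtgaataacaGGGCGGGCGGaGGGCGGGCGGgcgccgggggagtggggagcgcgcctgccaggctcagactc
THBS1: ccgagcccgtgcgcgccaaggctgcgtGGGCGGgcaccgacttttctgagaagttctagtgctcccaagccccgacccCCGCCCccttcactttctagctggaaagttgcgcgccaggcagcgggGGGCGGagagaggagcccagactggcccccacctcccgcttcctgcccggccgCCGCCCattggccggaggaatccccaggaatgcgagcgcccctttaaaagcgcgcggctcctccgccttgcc
LTBP1: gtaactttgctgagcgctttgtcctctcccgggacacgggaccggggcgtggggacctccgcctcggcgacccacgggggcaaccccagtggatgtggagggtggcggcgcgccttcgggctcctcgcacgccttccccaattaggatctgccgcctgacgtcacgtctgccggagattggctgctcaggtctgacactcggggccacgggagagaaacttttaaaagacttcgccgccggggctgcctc
The motif occurred 5 times in the FBLN2 window, 2 times in FBLN7, 4 times in EDIL3, 4 times in THBS1 and 0 times in LTBP1. Of the 40 members, 31 had a 250-base window before the start, and 27 of these were tested. Unlike the 5 shown, many of these windows cover annotated exon bases, such as 161 in FN1, 186 in PCOLCE and all 250 in LTBP4 and SPARC. The counts below include those bases. The motif was in 20 of the 27 (74.1%), beside 64.9% of the 11653 windows of tested genes and 42.3% of all 27305 windows, with 11 of 13 among the genes that fell and 9 of 14 among those not called. The TEAD core GGAATG was in 8 of the 27 windows (29.6%, against 9.54% for tested genes and 11.9% for all) and the AP-1 motif TGANTCA in 3 (11.1%, against 4.25% and 6.6%), both read on either strand. Of the genes that fell, 3 of 13 held the TEAD core and 1 of 13 the AP-1 motif, against 5 and 2 of the 14 that were not called. Among tested members and tested genes, the TATA box TATAAA was in 3 windows (11.1% against 6%), the hypoxia response element ACGTG in 5 (18.5% against 22.9%), the NF-kB motif GGGANTTCC in 2 (7.41% against 2.08%), the EGR1 motif GCGGGGGCG, which can overlap GGGCGG, in 1 (3.7% against 7.45%), and the SMAD element GTCTAGAC in 0 (against 0.18%). These counts describe letters in a short window and not sites that were bound.

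Expression of the set was led by a few genes. In LX-2Vector, 25 of the 40 genes had a mean of 1 FPKM or more. SPOCK1, a secreted proteoglycan of the SPARC family also called testican, was the highest at 82.6 ± 7.10 FPKM (SD, n = 3), followed by SPARC, a collagen-binding matricellular protein, at 51.0 ± 2.5 FPKM. Fibronectin (FN1) followed at 29.9 ± 2.11 FPKM. The libraries of these 3 genes did not overlap with each other.

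Below fibronectin came TGFBI (28.5 ± 2.80 FPKM), ECM1 (26.4 ± 1.04 FPKM), FBLN2 (23.9 ± 1.93 FPKM), THBS2 (20.2 ± 2.53 FPKM) and TNC (20.2 ± 0.833 FPKM). From FN1 down to TNC, the range of each gene over the control libraries overlapped with that of the next. Read within each control library, FN1 lay above TGFBI, ECM1, FBLN2, THBS2 and TNC, ECM1 above FBLN2, and FBLN2 above THBS2. The margin of FN1 over TGFBI was narrow in LX-2Vector replicate 2 (27.8 and 27.7 FPKM). TGFBI and ECM1 changed order between control libraries, as did THBS2 and TNC. SRPX (15.4 ± 0.896 FPKM) and EFEMP2 (13.2 ± 0.755 FPKM) came next, each apart from its neighbor above. At the other end, 7 genes had no more than 11 counts in any library and were not tested: the osteoblast-type adhesion protein POSTN, tropoelastin (ELN), the microfibril-associated MFAP2 and MFAP5, the cartilage thrombospondin COMP, SMOC2 and CTHRC1. ELN had 0 counts in 5 of 6 libraries and 2 counts in LX-2FAP replicate 3, so a change in elastin or periostin was not detectable at this depth.

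**Figure D1:**
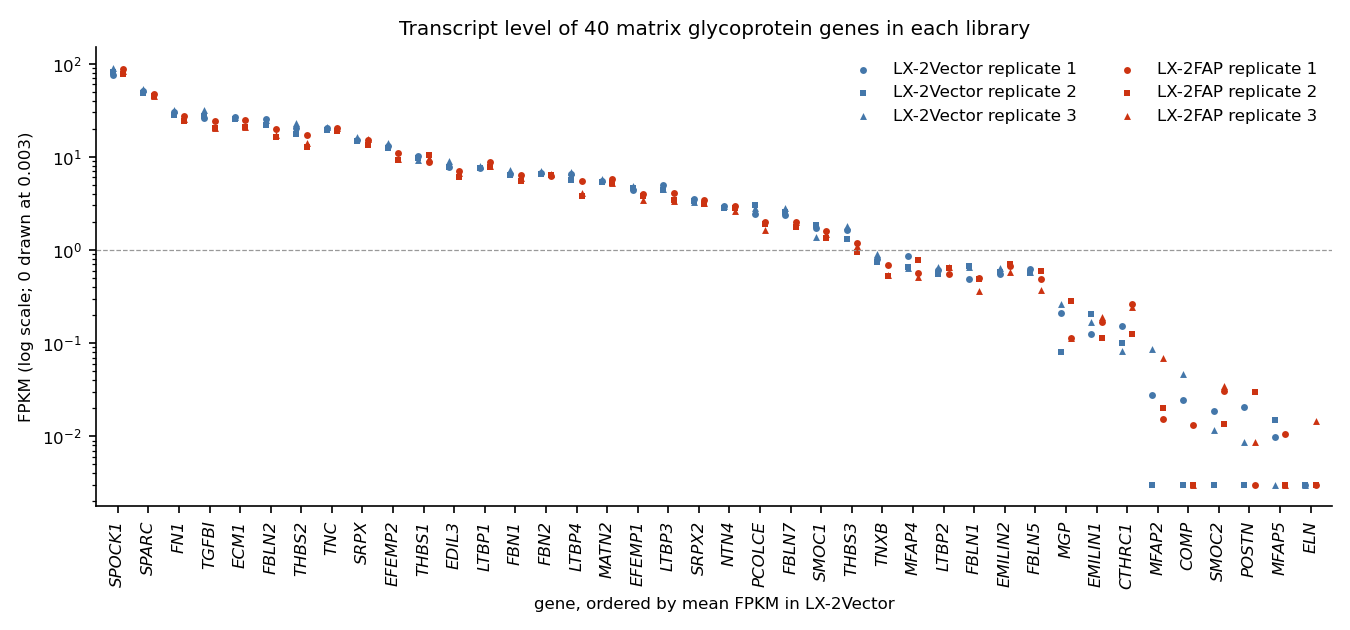
Level of each matrix glycoprotein gene in every library, in FPKM on a log axis, with LX-2Vector in blue, LX-2FAP in red, the shape giving the replicate, values of 0 drawn at the foot of the axis, a dashed line at 1 FPKM and genes ordered by mean FPKM in LX-2Vector. SPOCK1, SPARC and FN1 lead with means of 82.6, 51.0 and 29.9 FPKM in LX-2Vector, and the 7 untested genes are the last 7.

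As a share of all counts, the 40 genes took 0.276%, 0.267% and 0.299% of the LX-2Vector libraries and 0.265%, 0.235% and 0.245% of the LX-2FAP libraries. The shares did not overlap, with LX-2FAP replicate 1 just below the lowest control.

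The comparison of LX-2FAP with LX-2Vector asked how forced FAPα expression alters the stellate cell transcriptome. Among the 33 matrix glycoprotein genes tested, 13 fell in LX-2FAP and 0 rose (adjusted p under 0.05, edgeR quasi-likelihood test over all tested genes). The 13 were FN1, TNXB, TGFBI, FBLN2, EFEMP2, FBLN7, LTBP3, LTBP4, THBS2, THBS3, PCOLCE, ECM1 and EDIL3. They make up 39.4% of the tested members, while 2.73% of all 18275 tested genes were called lower, 2.57% higher and 5.29% in either direction. The reductions were modest, from 12.2% for FN1 to 31.9% for PCOLCE. The median log2 fold change over the 33 tested genes was -0.20, with a range of -0.55 to 0.17, beside -0.01 over all tested genes, and 27 of the 33 (81.8%) were below 0 beside 53.0% of all tested genes. As RNA was measured in bulk, fewer cells that express a gene and less RNA per cell cannot be told apart.

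The study cut at a 1.2-fold change and p under 0.05. With an unadjusted p this left 13 members lower and 0 higher, against 6.44% and 1.45% of all tested genes (7.89% in either direction). This set held EFEMP1 and FBLN1 in place of FN1 and ECM1, whose changes were under the fold. CPM values did not overlap between the groups, with LX-2FAP lower, for 12 members (36.4%) and for 13.4% of all tested genes. At an unadjusted p under 0.05 alone, 17 members were lower and 1, LTBP1, higher, against 11.6% and 10.5% of all tested genes. LTBP1 was the only tested member whose LX-2FAP libraries all lay above the controls, a pattern found in 13% of all tested genes.

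**Figure D2:**
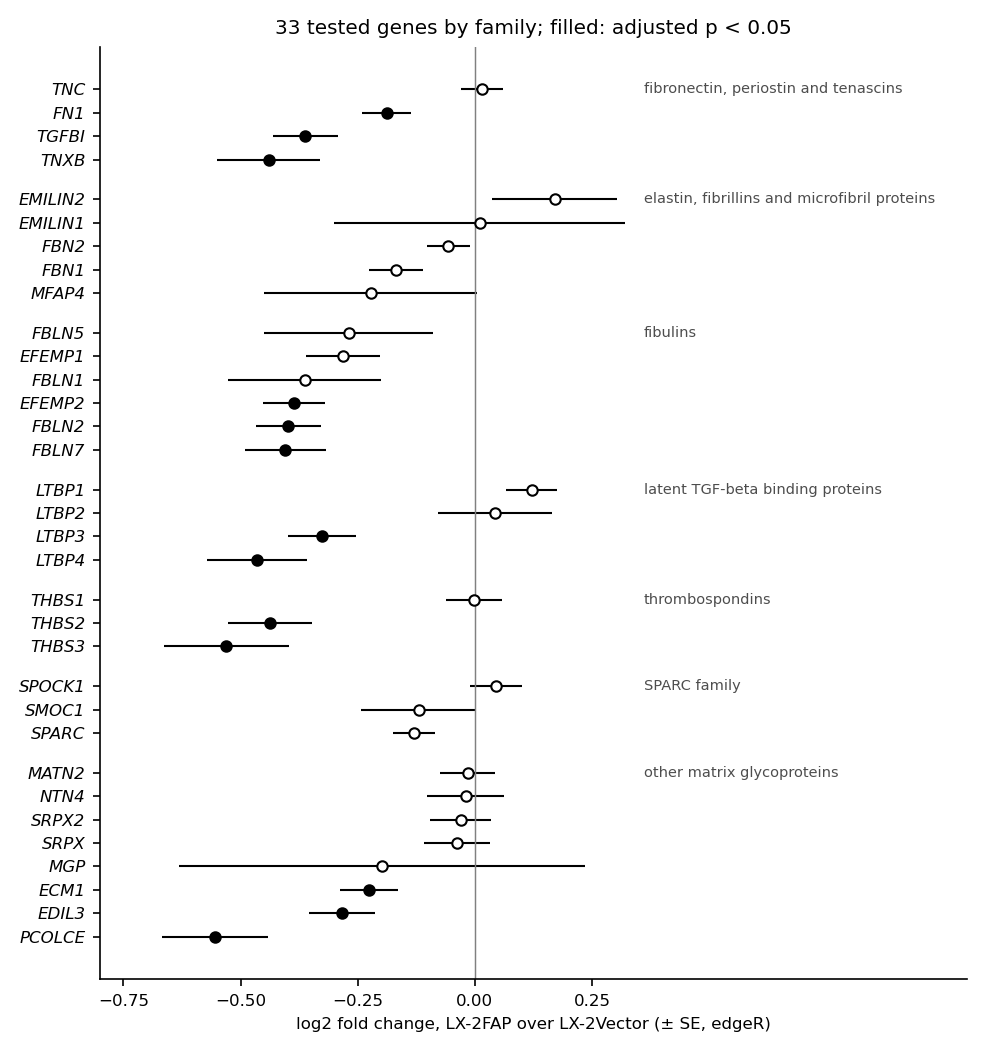
Log2 fold change (LX-2FAP over LX-2Vector) of the 33 tested genes by family, with bars of 1 SE of the edgeR fit to each side and filled points for genes called at an adjusted p under 0.05. All 13 filled points lie left of 0, from PCOLCE at -0.55 to FN1 at -0.19.

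Fibronectin fell slightly in LX-2FAP, TGFBI and TNXB fell more, and tenascin C did not pass the test. FN1 (ENSG00000115414, chromosome 2, 215360440 to 215436172, GRCh38), whose fibrils cells assemble through integrins, measured 514, 473 and 546 CPM in LX-2Vector and 478, 425 and 441 CPM in LX-2FAP. The highest LX-2FAP library lay above the lowest control, so the groups overlapped. Its log2 fold change was -0.19 ± 0.05 (SE; adjusted p = 0.0498, edgeR quasi-likelihood test), which sits at the threshold.

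TGFBI (ENSG00000120708, chromosome 5, 136028895 to 136063818), an integrin-binding protein first found as a TGF-β-induced gene, measured 202, 211 and 242 CPM in LX-2Vector and 189, 160 and 160 CPM in LX-2FAP. Every LX-2FAP library was below every control. The level went from 28.5 ± 2.80 to 21.7 ± 2.22 FPKM (SD, n = 3), a log2 fold change of -0.36 ± 0.07 (adjusted p = 0.0115, edgeR). TNXB (ENSG00000168477, chromosome 6, 32041153 to 32115334), the tenascin of loose connective tissue that binds collagen fibrils, measured 12.6, 11.6 and 14.3 CPM in LX-2Vector and 11, 8.45 and 8.78 CPM in LX-2FAP. The groups did not overlap, with LX-2FAP replicate 1 close to the lowest control, and the log2 fold change was -0.44 ± 0.11 (adjusted p = 0.0325, edgeR). A near-identical partial copy, TNXA, held only 4 to 16 counts per library. How reads that fit both genes were counted is not given in the sources used here. The low count therefore does not settle whether TNXB lost reads in the shared stretch.

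TNC (ENSG00000041982), the tenascin deposited in wound repair, measured 197, 184 and 199 CPM in LX-2Vector and 199, 187 and 201 CPM in LX-2FAP. The groups were nearly superimposed. Its log2 fold change was 0.01, with a 95% interval of -0.08 to 0.11 (adjusted p = 0.89, edgeR).

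None of the 5 tested fibrillin, elastin and microfibril genes passed the test, and their median log2 fold change was -0.06. Fibrillin-encoding FBN1, the main backbone of microfibrils, measured 120, 117 and 134 CPM in LX-2Vector and 118, 102 and 110 CPM in LX-2FAP. LX-2FAP replicate 1 lay among the controls. The log2 fold change of FBN1 was -0.17 ± 0.06 (adjusted p = 0.0987, edgeR), and that of FBN2, the fibrillin prominent in development, was -0.06 with a 95% interval of -0.16 to 0.04. The low-expressed MFAP4, EMILIN1 and EMILIN2 had log2 fold changes of -0.22, 0.01 and 0.17 and adjusted p-values of 0.62, 0.992 and 0.501 (edgeR).

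The fibulins are calcium-binding proteins that link elastic fibers, basement membranes and cell surfaces. All 6 were tested, all 6 had a log2 fold change below 0 and 3 passed the test, with a family median of -0.37. FBLN2 (ENSG00000163520, chromosome 3, 13549131 to 13638422), a fibronectin- and fibrillin-binding fibulin, measured 122, 103 and 118 CPM in LX-2Vector and 96.9, 79.6 and 83.5 CPM in LX-2FAP. Every LX-2FAP library was below every control. The level went from 23.9 ± 1.93 to 17.8 ± 1.90 FPKM (SD, n = 3), and the log2 fold change was -0.40 ± 0.07 (adjusted p = 0.00774, edgeR).

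EFEMP2 (ENSG00000172638, chromosome 11, 65866441 to 65873592), a fibulin required for elastic fiber assembly that brings lysyl oxidase to its substrate, measured 70.7, 66.9 and 75.0 CPM in LX-2Vector and 60.4, 50.2 and 51.9 CPM in LX-2FAP. Again no LX-2FAP library reached a control. Its level went from 13.2 ± 0.755 to 9.92 ± 1.02 FPKM (SD, n = 3), with a log2 fold change of -0.39 ± 0.07 (adjusted p = 0.00765, edgeR). FBLN7 (ENSG00000144152, chromosome 2, 112138385 to 112188216), a cell adhesion fibulin, measured 15.7, 16.8 and 18.4 CPM in LX-2Vector and 13.3, 11.7 and 13.2 CPM in LX-2FAP. Its groups were apart and its log2 fold change was -0.40 ± 0.09 (adjusted p = 0.0176, edgeR).

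EFEMP1 (ENSG00000115380, chromosome 2, 55865967 to 55924139), a fibulin of retinal and fascial matrix, measured 17.4, 18.3 and 19.0 CPM in LX-2Vector and 16.0, 15.1 and 13.8 CPM in LX-2FAP. The groups did not overlap, yet the gene missed the threshold with a log2 fold change of -0.28 ± 0.08 (adjusted p = 0.0505, edgeR). FBLN1 and FBLN5, both below 1 FPKM, had log2 fold changes of -0.36 and -0.27 and adjusted p-values of 0.204 and 0.412 (edgeR), and their groups overlapped.

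The latent TGF-β binding proteins divided within the family. LTBP3 and LTBP4, expressed at 4.64 and 6.28 FPKM on average in the controls, fell in LX-2FAP, while LTBP1 and LTBP2 did not pass the test. The genes that fell had 67.8% and 66.7% GC and the others 51.7% and 57.2%. With the trend of fold change with GC content removed, the log2 fold changes of LTBP3 and LTBP4 were -0.14 and -0.29 and neither was called (adjusted p = 0.159 and 0.0875, edgeR). LTBP3 (ENSG00000168056, chromosome 11, 65538805 to 65558930), which binds latent TGF-β during secretion, measured 52.8, 47.0 and 47.9 CPM in LX-2Vector and 44.3, 36.8 and 36.7 CPM in LX-2FAP. The groups did not overlap and the log2 fold change was -0.33 ± 0.07 (adjusted p = 0.0209, edgeR).

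LTBP4 (ENSG00000090006, chromosome 19, 40592883 to 40629818), which also takes part in elastic fiber assembly with fibulins, measured 52.3, 44.9 and 54.5 CPM in LX-2Vector and 45.1, 30.9 and 33.3 CPM in LX-2FAP. LX-2FAP replicate 1 lay just above LX-2Vector replicate 2, and the other LX-2FAP libraries lay well below all controls. Its log2 fold change was -0.47 ± 0.11 (adjusted p = 0.0231, edgeR). LTBP1 (ENSG00000049323, chromosome 2, 32946972 to 33399509), the founding member that tethers latent TGF-β to fibronectin and fibrillin, measured 54.9, 54.8 and 57.3 CPM in LX-2Vector and 64.8, 57.7 and 58.8 CPM in LX-2FAP. All LX-2FAP libraries were above the controls, 2 of them narrowly, and the log2 fold change of 0.12, with a 95% interval of 0.01 to 0.24, did not pass the adjusted threshold (adjusted p = 0.202, edgeR). LTBP2, which does not bind latent TGF-β, had a log2 fold change of 0.04 with a 95% interval of -0.21 to 0.30.

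Of the thrombospondins, THBS2 and THBS3 fell and THBS1 did not pass the test. THBS2 (ENSG00000186340, chromosome 6, 169215780 to 169254044), an antiangiogenic matricellular protein that affects collagen fibril assembly, measured 144, 126 and 163 CPM in LX-2Vector and 124, 93.7 and 102 CPM in LX-2FAP. The groups did not overlap, with LX-2FAP replicate 1 close to the lowest control. The level went from 20.2 ± 2.53 to 14.6 ± 2.15 FPKM (SD, n = 3), and the log2 fold change was -0.44 ± 0.09 (adjusted p = 0.0144, edgeR).

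THBS3 (ENSG00000169231, chromosome 1, 155195588 to 155209051), a pentameric thrombospondin of connective tissue, measured 7.53, 6.04 and 8.37 CPM in LX-2Vector and 5.59, 4.45 and 5.16 CPM in LX-2FAP. All LX-2FAP libraries were below the controls and the log2 fold change was -0.53 ± 0.13 (adjusted p = 0.032, edgeR). Of its exon bases 25.4% lie opposite exons of other genes, whose reads cannot be told apart from its own if strand was not used in counting. THBS1 (ENSG00000137801, chromosome 15, 39581079 to 39599466), the trimeric paralog of THBS2 and an activator of latent TGF-β, measured 94.3, 89.0 and 84.1 CPM in LX-2Vector and 81.7, 96.5 and 89.4 CPM in LX-2FAP. The groups were intermixed, and the log2 fold change was -0.00 with a 95% interval of -0.13 to 0.12.

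No gene of the SPARC family passed the test. SPARC (ENSG00000113140) measured 238, 222 and 245 CPM in LX-2Vector and 224, 210 and 210 CPM in LX-2FAP. The groups overlapped by a narrow margin, and the log2 fold change was -0.13 ± 0.05 (adjusted p = 0.102, edgeR). SPOCK1 (ENSG00000152377) measured 470, 500 and 553 CPM in LX-2Vector and 553, 491 and 526 CPM in LX-2FAP. The groups covered the same range, with a log2 fold change of 0.05 and a 95% interval of -0.07 to 0.16, so the difference in the most abundant member was within the replicate spread. SMOC1, a basement membrane protein, had a log2 fold change of -0.12 (adjusted p = 0.622, edgeR).

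Among the other matrix glycoproteins, PCOLCE, ECM1 and EDIL3 fell. PCOLCE (ENSG00000106333, chromosome 7, 100602177 to 100608175), which enhances the cleavage of procollagen C-propeptides, measured 8.21, 9.97 and 9.45 CPM in LX-2Vector and 6.72, 6.39 and 5.54 CPM in LX-2FAP. The groups were well apart, and the log2 fold change of -0.55 ± 0.11 (adjusted p = 0.0144, edgeR) was the lowest of the set. An antisense gene lies opposite 16.6% of its exon bases.

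EDIL3 (ENSG00000164176, chromosome 5, 83940554 to 84384793), a secreted integrin ligand of endothelial and mesenchymal cells, measured 45.2, 44.6 and 52.1 CPM in LX-2Vector and 41.1, 35.4 and 39.8 CPM in LX-2FAP. The groups did not overlap, and the log2 fold change was -0.28 ± 0.07 (adjusted p = 0.0315, edgeR). ECM1 (ENSG00000143369, chromosome 1, 150508062 to 150513789), a hepatic matrix protein that keeps TGF-β latent, measured 90.2, 83.7 and 89.9 CPM in LX-2Vector and 83.6, 70.8 and 70.9 CPM in LX-2FAP. LX-2FAP replicate 1 lay barely below the lowest control, and the log2 fold change was -0.23 ± 0.06 (adjusted p = 0.0443, edgeR).

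SRPX (ENSG00000101955), a sushi-domain protein, measured 30.2, 28.8 and 32.3 CPM in LX-2Vector and 30.5, 27.0 and 31.3 CPM in LX-2FAP. The groups overlapped, with a log2 fold change of -0.04 and a 95% interval of -0.19 to 0.11. Its relative SRPX2, the filament protein MATN2 and the laminin-binding NTN4 had log2 fold changes of -0.03, -0.02 and -0.02 and adjusted p-values of 0.835, 0.912 and 0.921 (edgeR). MGP, an inhibitor of calcification, had 4 to 16 counts per library and a log2 fold change of -0.20 with a 95% interval of -1.12 to 0.72.

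The 3 LX-2FAP libraries did not depart from the controls to the same degree. Taken against the LX-2Vector mean, the median log2 ratio of the 13 genes that fell was -0.22 in LX-2FAP replicate 1, -0.52 in replicate 2 and -0.45 in replicate 3, beside -0.09 to 0.11 in the control libraries. These genes were chosen for being lower, and over all 33 tested members the medians were -0.13, -0.27 and -0.25. In 13 of 13 genes, LX-2FAP replicate 1 was the highest of the LX-2FAP libraries. The median over all tested genes lay between -0.01 and 0.00 in each library.

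**Figure D3:**
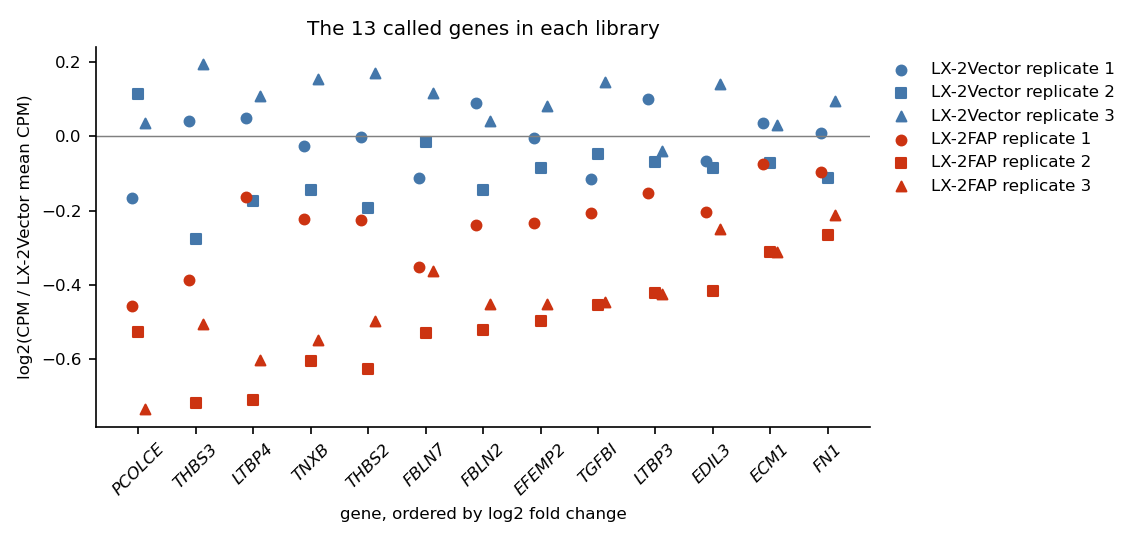
Log2 ratio of CPM to the LX-2Vector mean for the 13 genes that fell, ordered by log2 fold change, with 1 point per library, blue for LX-2Vector and red for LX-2FAP, and the shape giving the replicate. In each gene the circle of LX-2FAP replicate 1 is the highest red point, and the medians of LX-2FAP replicates 1, 2 and 3 are -0.22, -0.52 and -0.45.

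Without LX-2FAP replicate 1, 16 members were called lower, with FBN1, EFEMP1 and SPARC added. Without LX-2FAP replicate 2 only FBLN2 and EFEMP2 were called. Without LX-2FAP replicate 3 the edgeR test called 0 members, although 15 were lower at an unadjusted p under 0.05, beside 7.83% of all tested genes. Of all tested genes, 5.62%, 0.341% and 0.0638% were called lower in these 3 fits. Without LX-2Vector replicate 1 the calls of FN1, TNXB, LTBP3, LTBP4, THBS2, THBS3, ECM1 and EDIL3 were lost, without LX-2Vector replicate 3 those of FN1, TNXB, FBLN7, LTBP4, THBS3, ECM1 and EDIL3, and without LX-2Vector replicate 2 that of ECM1. These fits called 5, 6 and 12 members lower, beside 1.15%, 0.96% and 1.8% of all tested genes. In all 6 fits the log2 fold changes of the 13 genes were below 0, between -0.66 and -0.13. With 2 libraries in a group, the test pooled the spread over both groups.

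**Figure D4:**
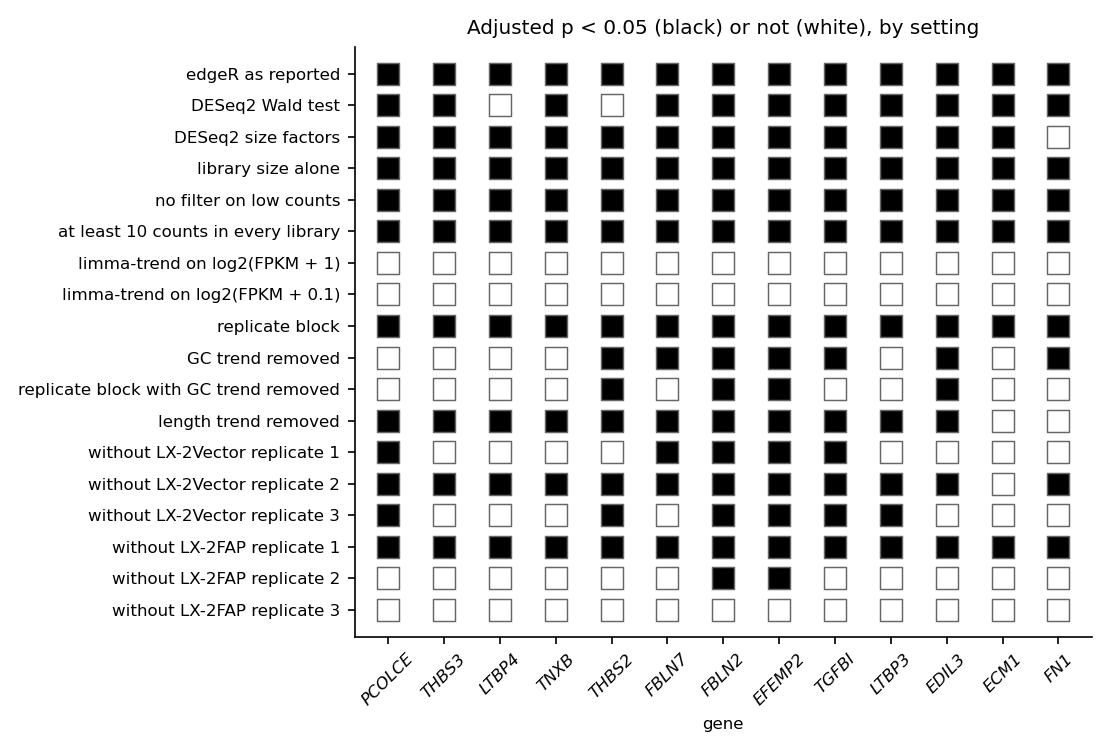
Calls of the 13 genes that fell (columns) in the reported edgeR fit and in each of the 17 alternatives (rows), with a black square for an adjusted p under 0.05 and a white square otherwise. Rows are white throughout for limma on FPKM and for edgeR without LX-2FAP replicate 3, and only FBLN2 and EFEMP2 are black without LX-2FAP replicate 2.

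GC content moved with the fold changes over all genes and with the genes that fell. When the tested genes were split into 5 groups of equal size by the GC content of the longest transcript, the median log2 fold change from the lowest to the highest group went from 0.07 through 0.03, -0.01 and -0.05 to -0.12. The 13 genes that fell had a median GC content of 55.8%, beside 49.4% for the 20 tested and not called and 47.7% for all tested genes. In the same order, 1 of 2, 1 of 3, 1 of 9, 5 of 12 and 5 of 7 tested members fell, beside 0.363%, 1.17%, 1.17%, 3.79% and 7.36% of all tested genes in those groups. With this trend removed, 7 members were called lower (FN1, TGFBI, FBLN2, EFEMP2, FBLN7, THBS2 and EDIL3) and 0 higher, beside 1.07% of all tested genes called lower. The log2 fold changes of the others were then -0.27 for TNXB, -0.14 for LTBP3, -0.29 for LTBP4, -0.43 for THBS3, -0.41 for PCOLCE and -0.13 for ECM1. EDIL3, with 38.1% GC, and FN1, with 42.2%, lay in the 2 groups lowest in GC. What sets the trend was not tested.

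**Figure D5:**
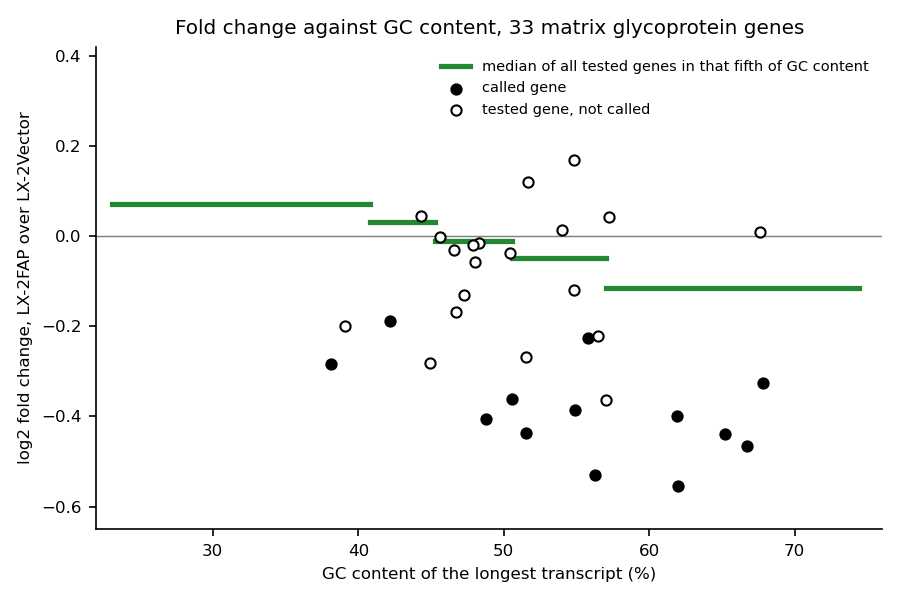
Log2 fold change (LX-2FAP over LX-2Vector) against GC content in percent for the 33 tested matrix glycoprotein genes (filled: called), with green lines for the median of all tested genes in each of 5 equal groups by GC content. That median goes from 0.07 to -0.12, and 10 of the 13 genes that fell lie in the 2 groups highest in GC.

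Genes that act with the set were read from 4 further lists, in the reported edgeR fit alone. Whether their calls hold with the GC trend removed or with 1 library left out is not reported here. Of 73 other core matrisome glycoproteins, 45 were tested, 1 rose and 7 fell, with a median log2 fold change of -0.18. The shares of all tested genes given above, 2.57% higher and 2.73% lower, stand beside this and the next counts. The gene that rose was ABI3BP, a matrix protein that binds heparin and collagen, with 172, 171 and 198 CPM in LX-2Vector and 224, 208 and 229 CPM in LX-2FAP (a log2 difference of 0.29, adjusted p = 0.012, edgeR). Those that fell were AGRN, AEBP1, MFGE8, the basement membrane linkers NID1 and NID2, VTN and VWF, from -1.06 for VWF to -0.22 for NID1. VWF was low, at 0.239 FPKM on average in LX-2Vector and 0.111 FPKM in LX-2FAP.

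Of the 14 tested genes listed here as assembly and cross-linking factors, 1 rose (ADAMTS6, 0.22) and 4 fell. BMP1, the procollagen C-proteinase that PCOLCE enhances, measured 49.2, 49.1 and 53.2 CPM in LX-2Vector and 43.6, 35.6 and 38.9 CPM in LX-2FAP, a log2 fold change of -0.35 (adjusted p = 0.0117, edgeR). Both the protease and its enhancer thus had every LX-2FAP library below every control. LOXL2, ADAMTSL4 and MXRA5 also fell, with log2 fold changes of -0.22, -0.46 and -2.11, the last of them at 0.0996 FPKM or less on average.

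Of 12 tested receptors, ITGA2, a collagen-binding integrin subunit, rose with a log2 fold change of 0.27 (adjusted p = 0.00957, edgeR). LRP1, an endocytic receptor that clears thrombospondins, fell with a log2 fold change of -0.40 (adjusted p = 0.00823, edgeR). ITGA5 and ITGAV, subunits of fibronectin and vitronectin receptors, had log2 fold changes of 0.03 and -0.03 and did not pass the test. None of the 5 latent TGF-β partners was called, and their median log2 fold change was -0.15.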

How the data were processed

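RNA from LX-2 cells was sequenced in 6 libraries, 3 per group, with groups and replicate numbers taken from sample titles. The labels describe rRNA depletion and the study's methods also name poly(A) isolation. The authors aligned reads with HISAT2 2.0.5 and counted them with featureCounts 1.5.0-p3, and deposited unnormalized counts and FPKM values per gene. The submitters' processing notes name build hg18, but 58337 of 60605 Ensembl identifiers were in GENCODE release 29 (GRCh38), the source of coordinates. The use of strand is not given in the sources used here.

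Counts were tested with edgeR 4.0.16 (R 4.3.3, quasi-likelihood test, 2-sided, TMM, filterByExpr with a minimum count of 10 and total of 15), adjusted by the Benjamini-Hochberg method over 18275 genes and called under 0.05. Standard errors derive from the test statistic. Nothing in the labels says that replicates were separate cultures, so p-values measure the spread between these libraries, which may be technical. Replicates differed by more than counting noise. An exact permutation test of 3 against 3 cannot go below 0.1. The test was checked on simulated data.

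Members and lists were chosen with earlier results of these data known. By the rule, called members, members past the study cutoff without overlap and the 10 highest in FPKM are given with every library. FBN1, LTBP1 and THBS1 were added for their families after their values were seen. Alternatives used DESeq2 1.42.0, DESeq2 size factors, library size alone, other filters, limma 3.58.1 on log2(FPKM + 1) and log2(FPKM + 0.1), a replicate block, a GC or length trend removed by loess (span 0.5), and fits without each library.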

Additional observations from a re-analysis of the deposited data

How the results depend on the processing

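Of the 17 alternatives, none called a matrix glycoprotein gene higher, and none turned the direction of the 13 genes that fell. The number called lower stayed at 11 to 15 with DESeq2, DESeq2 size factors, library size alone, other filters, the replicate block or the length trend removed, where 2.23% to 4.43% of all tested genes were called lower. It was 7 with the GC trend removed, 4 with the replicate block and the GC trend removed (FBLN2, EFEMP2, THBS2 and EDIL3, beside 0.345% of all tested genes), and 0 with limma on log2(FPKM + 1) or log2(FPKM + 0.1), where 16 were lower at an unadjusted p under 0.05 in each, beside 13.5% and 13.4% of all tested genes, and 2 genes were called over the whole table. The cause was not tested. Leaving out 1 library gave 0 to 16. The number past the study cutoff ranged from 10 to 14 over those 6 fits. Beside this, 4.87% to 8.03% of all tested genes were lower by that cutoff. The median log2 fold change of the members was -0.25 without LX-2Vector replicate 2 and -0.14 with the GC trend removed.

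Over all tested genes, the deviations of same-numbered libraries correlated at -0.04, 0.04 and -0.01, so replicate numbers showed no pairing at that scale. By the median log2 ratio over the tested members, replicate 2 was the lowest library of LX-2Vector (-0.07) and of LX-2FAP (-0.27). Whether replicate numbers pair the libraries in these genes alone was not tested. The fit with the replicate block called 13 members and changed no call of the 18 named genes. Over all genes, calls higher and lower were 469 and 498 in the reported fit, 239 and 809 with library size alone, 588 and 196 with the GC trend removed, and 1281 and 468 with the length trend removed.

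Log2 fold changes near 0 changed sign. That of TNC was -0.014 with library size alone, -0.0128 and -0.0134 with limma, and -0.0133 to 0.0472 with 1 library left out. That of SRPX was 0.0129 with the GC trend removed, 0.0127 with the block as well, and -0.0774 to 0.0209 with 1 library left out, and that of SPOCK1 was -0.00734 to 0.118. Depth limits the 7 untested genes and MGP.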

Other observations

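Ratios of FPKM between members, from pairs chosen after their values were seen, are given with no test. LTBP4 over LTBP1 was 0.864, 0.742 and 0.861 in LX-2Vector and 0.631, 0.485 and 0.514 in LX-2FAP, without overlap. THBS2 over THBS1 was 1.95, 1.81 and 2.46 in LX-2Vector and 1.93, 1.24 and 1.46 in LX-2FAP, where LX-2FAP replicate 1 lay among the controls. FBLN2 over TNC, a called and an uncalled gene of different families, was 1.23, 1.13 and 1.18 in LX-2Vector and 0.974, 0.853 and 0.834 in LX-2FAP. FBLN2 thus exceeded TNC in every control library and in no LX-2FAP library, which restates the fall of FBLN2 beside a gene that did not change. In each pair the first gene had the higher GC content (66.7% and 51.7%, 51.5% and 45.6%, 61.9% and 54.0%). The ratios were not corrected for the GC trend.

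The stellate markers moved in both directions. COL1A1, COL3A1 and PDGFRB fell with log2 fold changes of -0.40, -0.69 and -0.38, and VIM rose by 0.13 on the log2 scale. The summed FPKM of the 8 markers was 342 to 360 in LX-2Vector and 351 to 371 in LX-2FAP, of which VIM alone made up 294 to 309 and 320 to 331. The other 7 markers summed to 48.2, 43.4 and 51.0 FPKM in LX-2Vector and 40.1, 30.6 and 34.8 FPKM in LX-2FAP, without overlap. Of these sums, COL1A1 alone made up 35.1, 30.9 and 36.8 FPKM in LX-2Vector and 29.1, 21.8 and 25.5 FPKM in LX-2FAP. The gap without VIM thus largely restates the fall of COL1A1.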
